A study of Rattus norvegicus with 12 samples.

Results

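The hepatic response to the level of dietary fat was examined in rats given olive oil, by comparing 3 arrays of livers from the 70% fat diet with 3 arrays from the 5% fat diet. These are all the arrays labelled with olive oil at these concentrations, 6 of the 12 in the series, and every probe set other than the array controls was tested. Olive oil is rich in the monounsaturated fatty acid oleate. All animals were male Sprague-Dawley rats of 150 g at the start. They were fed through a gastric cannula with a complete liquid diet (total enteral nutrition) and were overfed by 17% of calories for 21 days. Diets had equal calories, so the 70% diet also held less carbohydrate, and effects of more fat and of less carbohydrate cannot be told apart. Each array held a pool of total liver RNA, and how many rats made up a pool was not stated. P-values therefore measure the spread between pools. The other 6 arrays, of 5% and 70% corn oil, entered the fit to estimate the spread and are used in 1 comparison.

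When carbohydrate is plentiful, the liver converts its carbon into fatty acids: sugars are broken down to pyruvate, pyruvate dehydrogenase and ATP citrate lyase supply acetyl-CoA, and acetyl-CoA carboxylase and fatty acid synthase build palmitate, which stearoyl-CoA desaturase turns into monounsaturated fatty acids. Insulin acting through Srebf1 and glucose acting through Mlxipl are known to raise transcription of these enzymes. When fatty acids arrive from the diet or from adipose tissue, the nuclear receptor PPARA is known to raise transcription of genes of mitochondrial, peroxisomal and microsomal fatty acid oxidation.

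The deposited values are log2 differences of a probe set from its own median over the 12 arrays, so they compare arrays and give no absolute level. Effects are given as the log2 difference of 70% minus 5% olive oil ± the standard error (SE) from limma, with 3 arrays in each group. A gene was called when its p-value, adjusted by the Benjamini-Hochberg method over all genes, was under 0.05.

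Among the 5% olive oil arrays, pool 3 stood apart. In that pool 5 genes were more than 2-fold above every other olive oil array: Lcn2, Lbp, Orm1, S100a9 and Hmox1. The first 4 encode secreted or neutrophil proteins of inflammation and the acute-phase response, and Hmox1 encodes the inducible heme oxygenase. Another 7 genes, with Slco1a4, Cyp3a23-3a1 and Mgst3 among them, were more than 2-fold below every other olive oil array in pool 3. The other 5 arrays had 0 to 1 such genes above and 0 to 3 below. Of 36 measured genes of inflammation and the acute phase, 21 had their highest olive oil value in pool 3. Lcn2 read 0.85, -0.39 and 6.19 in pools 1 to 3 at 5% and -1.22, 0.39 and 2.80 at 70%. The summed log2 differences of this list were 0.46, -1.78 and 16.3 in the pools at 5% and -2.93, 2.83 and 0.79 at 70%. What part this pool had in the results was not tested beyond leaving it out, and counts are given with and without it.

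With olive oil, 26 of 4736 genes differed between fat levels, which is 0.549% of those tested. At 70% fat 10 genes rose (0.211%) and 16 fell (0.338%). The falls included 5 of 14 measured genes of fatty acid and triglyceride synthesis and 2 of 20 of carbohydrate breakdown. The rises included 2 of 22 genes of mitochondrial fatty acid oxidation, 2 of 21 of peroxisomal oxidation and division and 2 of 19 other PPARA targets. Acot1 had the largest rise and Pnpla3 the largest fall of all genes tested. Each of these 26 genes had olive oil arrays that did not overlap between the diets. Non-overlap alone was common: 12.7% of all genes had all 3 arrays at 70% above all 3 at 5%, and 7.28% had them below. The median difference over all genes was 0.03, with 2805 of 4736 above 0 and 1931 below. Of the 4736 genes, 199 were higher and 189 lower at 70% with an unadjusted limma p under 0.05. Without pool 3 of 5% olive oil 12 genes were called, 10 that fell and 2 that rose, and all 12 were among the 26. Leaving out pool 1 of 5% olive oil gave 12 calls, 11 of them among the 26. Leaving out pool 1 of 70% olive oil gave 11 calls, all among the 26, and leaving out pool 2 gave 17, of which 15 were. The genes that kept their call without each of the 12 arrays in turn were 10: Pnpla3, Fabp5, Scd, Fasn, Slc2a5, Cavin3, Dlat, Acaca, Eci1 and Aldh1a1. Of the other calls, those on Cpt2, Cyp4a1 and Cyp7b1 ended without any 1 of the 6 olive oil arrays. Those on Pklr, RT1-DMb, Impa2, Pex11a and Crot ended without 5 of the 6, each left out singly. When each array was centred on its median, 18 genes were called, 3 up and 15 down, and the calls lost were Pklr, Cpt2, Impa2, Cyp7b1, Pex11a, Cyp4a1, Cyp2b2 and Crot. A fit on the 6 olive oil arrays alone called 40 genes (0.845%), 17 up and 23 down, and kept 20 of the 26, losing Apoa4, Fxyd2, RT1-DMb, Crot, Pex11a and Impa2.

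**Figure D1:**
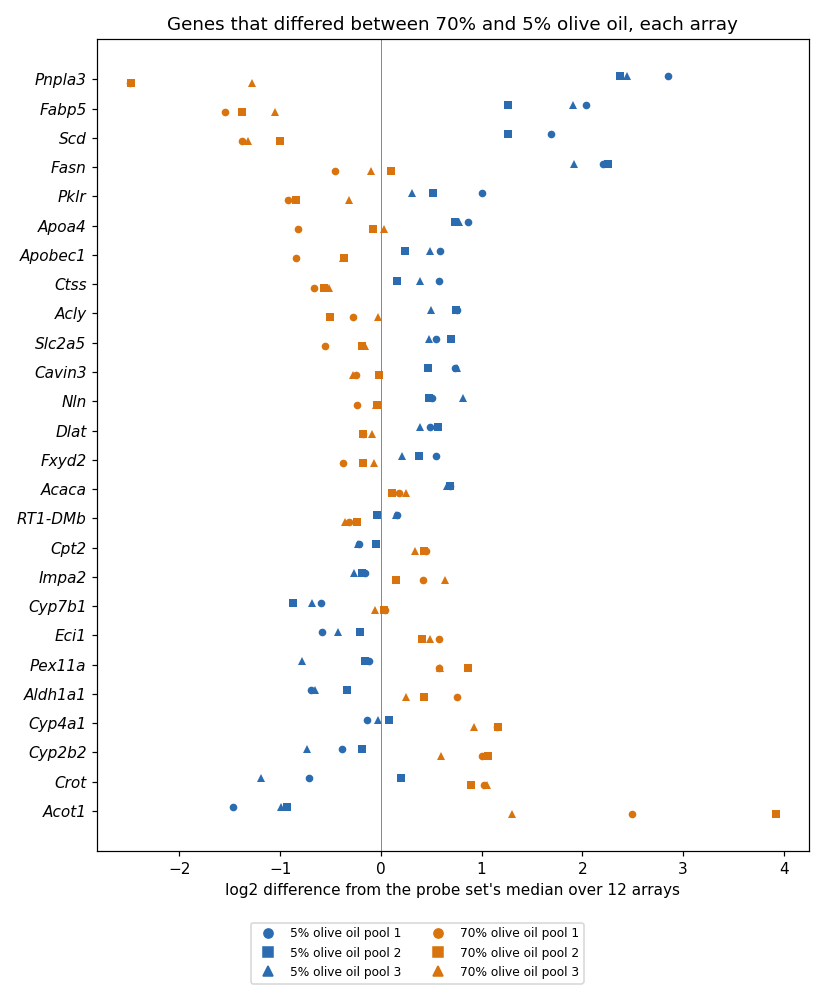
The 26 genes called between 70% and 5% olive oil, ordered by their difference, with 1 point for each of the 6 arrays; the x axis is the log2 difference from the median of the 12 arrays, colour gives the diet and shape the pool. The 5% and 70% points of each gene do not overlap, and Pnpla3, Fabp5, Scd, Fasn and Acot1 are the most widely separated.

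**Figure D2:**
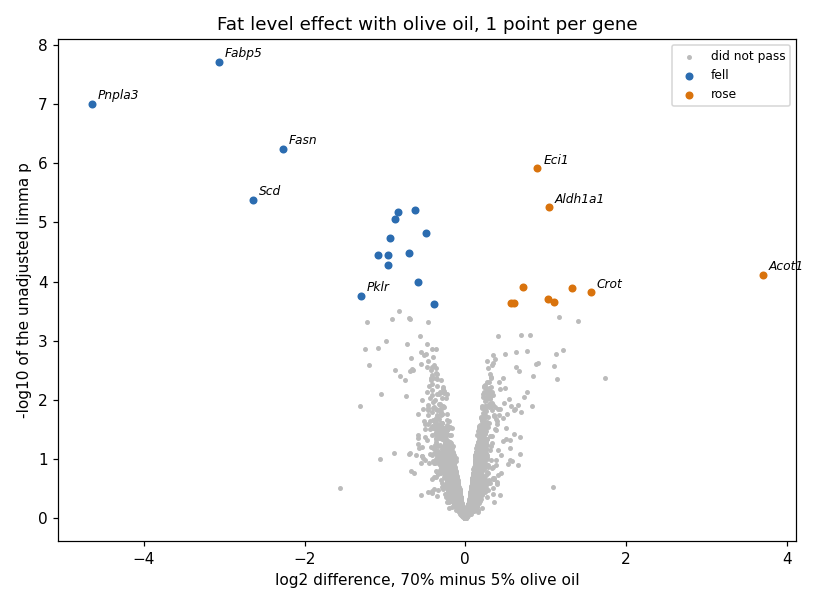
Each point is 1 of 4736 genes; the x axis is the log2 difference of 70% minus 5% olive oil and the y axis is -log10 of the unadjusted limma p-value. The 16 genes that fell lie at the upper left and the 10 that rose at the upper right.

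Enzymes of fatty acid and triglyceride synthesis formed the largest called group. Of 14 measured members 5 fell and 0 rose, with a median difference of -0.31 against 0.03 over all genes. The same 5 members were called without pool 3 of 5% olive oil. Pnpla3, a lipid droplet protein that remodels triglycerides, read 2.85, 2.37 and 2.45 in the 5% pools and -2.50, -2.48 and -1.28 in the 70% pools. Every 5% pool was far above every 70% pool, and pool 3 at 70% was the least reduced. The difference was -4.64 ± 0.42, or 25-fold lower at 70% (limma adjusted p = 0.000233). Fasn, which encodes fatty acid synthase, read 2.20, 2.25 and 1.92 at 5% and -0.45, 0.10 and -0.09 at 70%. The groups were separated by more than the spread within either, with a difference of -2.27 ± 0.24, 4.83-fold lower (limma adjusted p = 0.000891).

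Scd, the stearoyl-CoA desaturase that makes oleate from stearate, read 1.69, 1.26 and 1.26 at 5% and -1.38, -0.997 and -1.32 at 70%. The 3 pools of each diet lay close together and the diets did not overlap. Scd fell by 2.64 on the log2 scale (SE 0.34, limma adjusted p = 0.00389), which is 6.22-fold lower. Acly, the ATP citrate lyase that makes cytosolic acetyl-CoA from citrate, read 0.76, 0.74 and 0.50 at 5% and -0.28, -0.50 and -0.02 at 70% (difference -0.93 ± 0.14, limma adjusted p = 0.00803). Its call ended without pool 1 of 5% or pool 1 of 70% olive oil, with the adjusted p at most 0.0542. Acaca, the acetyl-CoA carboxylase that commits acetyl-CoA to fatty acid synthesis, had the tightest groups: 0.68, 0.68 and 0.66 at 5% and 0.18, 0.12 and 0.25 at 70%. Its difference of -0.49 ± 0.07 was the smallest of the 5 and passed (limma adjusted p = 0.00722).

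The other members of this list did not pass. Me1, the malic enzyme that supplies NADPH for synthesis, read 1.16, 0.72 and 0.85 at 5% and -0.45, -0.58 and 0.10 at 70%, with no overlap. Its difference was -1.22 ± 0.26 with a limma adjusted p of 0.068 in the fit on all arrays and 0.032 in the fit on olive oil arrays alone. Gpam, which starts glycerolipid assembly, differed by -0.36 ± 0.10 and Acacb, the carboxylase linked to control of fatty acid entry into mitochondria, by -0.26 ± 0.11. Srebf1, the transcription factor gene named above, read 1.05, 0.75 and -0.12 at 5% and 0.52, 0.65 and 0.70 at 70%. Its diets overlapped, pool 3 at 5% was the lowest array, and the difference was 0.06 ± 0.24. Without that pool it was -0.27 (limma adjusted p = 0.781), so its direction is not settled.

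Promoter windows were looked up because these genes moved together. RefSeq (GRCr8 assembly) gave one, from 250 bases before to 50 bases after the start, for 18 of the 26 called genes. None was given for Fasn, Acaca, Fabp5, Cavin3, Fxyd2, RT1-DMb, Cyp4a1 and Cyp7b1, so the motif counts leave these genes out. The windows of Pnpla3, Acly and Pklr, from the genes that fell, are shown 5′ to 3′ on the strand of the gene, with matches to the searched motifs in capitals. They lie at chr7:117173278-117173577 on the plus strand for Pnpla3, chr10:85963582-85963881 on the minus strand for Acly and chr2:176841014-176841313 on the plus strand for Pklr.
Pnpla3: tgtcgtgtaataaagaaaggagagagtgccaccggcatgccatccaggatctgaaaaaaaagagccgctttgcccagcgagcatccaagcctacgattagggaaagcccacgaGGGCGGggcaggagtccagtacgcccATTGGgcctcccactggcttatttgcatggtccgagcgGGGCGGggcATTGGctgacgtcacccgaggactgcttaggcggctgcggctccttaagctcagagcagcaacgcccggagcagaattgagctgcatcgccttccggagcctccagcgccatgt
Acly: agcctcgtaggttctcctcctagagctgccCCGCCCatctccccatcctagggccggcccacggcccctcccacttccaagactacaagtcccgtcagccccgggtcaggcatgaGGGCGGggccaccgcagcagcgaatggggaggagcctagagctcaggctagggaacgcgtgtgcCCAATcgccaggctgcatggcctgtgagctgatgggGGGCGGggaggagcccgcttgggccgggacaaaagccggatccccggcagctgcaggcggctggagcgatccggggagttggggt
Pklr: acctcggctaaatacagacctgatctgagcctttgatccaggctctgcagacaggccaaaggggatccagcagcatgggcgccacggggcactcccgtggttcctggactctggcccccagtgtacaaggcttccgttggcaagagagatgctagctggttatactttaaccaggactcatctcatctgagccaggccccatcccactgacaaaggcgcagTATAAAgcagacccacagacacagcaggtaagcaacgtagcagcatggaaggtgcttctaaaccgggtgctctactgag
The capitals mark CCAAT boxes (CCAAT) and GC boxes (GGGCGG) on either strand in Pnpla3 and Acly, and a TATA box (TATAAA) in Pklr. Both CCAAT boxes of Pnpla3 are on the reverse strand and begin at positions -111 and -64 from the start. Searched on both strands, CCAAT was in 4 of 10 windows of genes that fell and 4 of 8 of genes that rose, against 37.5% of all 33469 windows of that length. GGGCGG was in 6 of 10 and 5 of 8, against 33.1%, and TATAAA in 2 of 10 and 0 of 8, against 14.2%. CACGTG, an E-box, was in 1 of 10 and 0 of 8 (6.42% of all windows), and TCACNCCAC, a form of the sterol regulatory element, in 0 of 10 and 0 of 8 (1.12%). Only exact matches were searched, with N as any base, so imperfect forms of a motif, such as an imperfect E-box, were neither marked nor counted. These counts describe letters in short windows and show nothing about binding of a factor.

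Carbohydrate breakdown genes included 2 that fell among 20 measured, with a list median of -0.17. Slc2a5, the fructose transporter, read 0.55, 0.69 and 0.48 at 5% and -0.56, -0.19 and -0.15 at 70%. Its groups did not overlap, and pool 1 at 70% was the lowest (difference -0.87 ± 0.12, limma adjusted p = 0.00465). Pklr, the pyruvate kinase of liver whose window is shown above, read 1.0, 0.52 and 0.31 at 5% and -0.92, -0.84 and -0.31 at 70%. Its difference was -1.30 ± 0.25 (limma adjusted p = 0.0394), and without pool 3 of 5% olive oil it was -1.45 with an adjusted p of 0.0531. Without pool 1 of 5% olive oil it was -1.11 with a limma adjusted p of 0.173. Khk, the ketohexokinase that starts fructose breakdown, differed by -0.48 ± 0.13, and Taldo1 of the pentose phosphate pathway by -0.42 ± 0.12. Neither passed. The glucose transporter Slc2a2 differed by 0.17 ± 0.13. Among 16 genes of gluconeogenesis and glycogen, limma called 0, and the list median was -0.02. Those at an unadjusted p under 0.05 numbered 2, both lower, against 189 lower of all 4736 genes. Pck1, the enzyme that commits carbon to gluconeogenesis, read -0.84, 1.21 and 1.13 at 5% and 0.80, 0.91 and 1.09 at 70%, so 1 pool at 5% was low and the diets overlapped. Its difference was 0.43 ± 0.49, and it was -0.24 without pool 1 and 0.74 without pool 3 of 5% olive oil.

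Of 10 measured genes of the pyruvate dehydrogenase complex and its regulators, 1 fell. Dlat, the acetyltransferase core of the complex, read 0.49, 0.56 and 0.39 at 5% and -0.18, -0.18 and -0.08 at 70% (difference -0.63 ± 0.08, limma adjusted p = 0.00389). The pools of each diet lay within a narrow range, and the call held without each of the 12 arrays. Pdhx, the protein that anchors another subunit to that core, differed by -0.47 ± 0.12 and the kinase Pdk1, which inactivates the complex, by -0.98 ± 0.23. Both had no overlap and passed in the fit on olive oil arrays alone, but not in the fit on all arrays (limma adjusted p = 0.18 and 0.123). Pdk4, another inactivating kinase and a PPARA target, read 0.12, 0.10 and 1.04 at 5% and 0.79, 0.94 and 0.69 at 70%. Pool 3 at 5% was the highest of the 6, the diets overlapped, and the difference was 0.38 ± 0.22; without that pool it was 0.69 (limma adjusted p = 0.1003).

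Mitochondrial fatty acid oxidation had 22 measured genes, of which 2 rose and 0 fell. Of the 22 differences 20 were above 0, against 2805 of 4736 over all genes. The list median was 0.36 against 0.03 over all genes, and 0.34 without pool 3 of 5% olive oil, when 1 member was called. Eci1, an enoyl-CoA isomerase needed to oxidise unsaturated fatty acids such as oleate, read -0.59, -0.20 and -0.42 at 5% and 0.58, 0.41 and 0.48 at 70%. Every array at 70% was above 0 and every array at 5% below, and the difference was 0.90 ± 0.10 (limma adjusted p = 0.00145). Cpt2, the inner-membrane carnitine palmitoyltransferase, read -0.22, -0.05 and -0.22 at 5% and 0.45, 0.43 and 0.34 at 70% (difference 0.57 ± 0.11, limma adjusted p = 0.0432). The call on Cpt2 was narrow: it was lost without any 1 of the 6 olive oil arrays, as were those on Cyp4a1 and Cyp7b1. Without pool 3 of 5% olive oil the adjusted p of Cpt2 was 0.177.

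Among the uncalled members, Cpt1a, the outer-membrane carnitine palmitoyltransferase that controls entry of fatty acids, read -0.64, 0.01 and 0.14 at 5% and 0.43, 0.45 and 0.29 at 70%. The arrays did not overlap, but pool 1 at 5% lay well below the other 5% pools and the difference was 0.56 ± 0.25 (limma adjusted p = 0.594). Decr1, the dienoyl-CoA reductase for polyunsaturated chains, differed by 0.69 ± 0.16 and Acadm, the medium-chain dehydrogenase, by 0.63 ± 0.16. The beta subunit of the trifunctional protein, Hadhb, differed by 0.58 ± 0.33 and its alpha subunit, Hadha, by 0.37 ± 0.10. Arrays of 14 members did not overlap, all higher at 70%, against 12.7% of all genes. Echs1 at -0.13 ± 0.12 and Acsm3 at -0.28 ± 0.18 were the members below 0; without pool 3 of 5% olive oil they were -0.22 and -0.07. For ketone body synthesis 4 genes were measured; limma called 0, with 1 at an unadjusted p under 0.05, and differences ran from 0.10 to 0.47.

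The promoter window of Eci1, the oxidation gene with the smallest adjusted p, lies at chr10:13961000-13961299 on the plus strand (GRCr8). It is shown because it holds a nuclear receptor half-site, AGGTCA, here on the reverse strand and beginning at position -94 from the start, next to a GC box.
Eci1: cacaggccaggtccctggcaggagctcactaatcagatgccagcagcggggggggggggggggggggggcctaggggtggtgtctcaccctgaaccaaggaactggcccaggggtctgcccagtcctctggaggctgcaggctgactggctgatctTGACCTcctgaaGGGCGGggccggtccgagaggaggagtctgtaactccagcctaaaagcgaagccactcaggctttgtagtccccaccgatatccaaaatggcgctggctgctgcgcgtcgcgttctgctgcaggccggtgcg
Cyp4a1 and Cyp7b1 also rose but had no window. The half-site was in 1 of 8 windows of genes that rose, 2 of 10 of genes that fell and 16.2% of all windows. The direct repeat AGGTCANAGGTCA, 2 such half-sites with 1 base between them and the form PPARA is known to bind, was in 0 of 8, 0 of 10 and 0.0538% of all windows.

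Of 21 genes of peroxisomal oxidation and peroxisome division 2 rose and 0 fell, and the list median of 0.02 was close to the 0.03 of all genes. Crot, which makes carnitine esters of chain-shortened fatty acids for export from peroxisomes, read -0.71, 0.20 and -1.19 at 5% and 1.03, 0.89 and 1.06 at 70%. The 70% pools were alike and the 5% pools spread widely, with pool 3 the lowest (difference 1.56 ± 0.29, limma adjusted p = 0.0359). Pex11a, which promotes peroxisome division, read -0.12, -0.15 and -0.78 at 5% and 0.57, 0.86 and 0.59 at 70%, again with pool 3 at 5% the lowest (difference 1.03 ± 0.20, limma adjusted p = 0.0426). Without pool 3 of 5% olive oil the differences were 1.25 for Crot and 0.81 for Pex11a, with adjusted p of 0.101 and 0.123, and neither was called. Ehhadh, the peroxisomal bifunctional enzyme, read -0.15, 0.02 and -0.42 at 5% and 1.27, 0.96 and 0.70 at 70%. Its arrays did not overlap and its difference of 1.16 ± 0.24 had a limma adjusted p of 0.0649. Hacl1, which acts on branched and hydroxylated chains, differed by -0.50 ± 0.20.

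Among 19 genes of omega-oxidation and other PPARA targets 2 rose and 0 fell, with a median of 0.13. Below 0 were 3 of the 19, against 1931 of 4736 over all genes. The lowest was Me1, described above, at -1.22 ± 0.26, which fell in the fit on the olive oil arrays alone. Acot1, the cytosolic acyl-CoA thioesterase, read -1.47, -0.93 and -0.99 at 5% and 2.49, 3.92 and 1.30 at 70%. The 70% pools spanned over 2 log2 units and all lay above the 5% pools. Its difference was 3.70 ± 0.64, or 13.0-fold higher (limma adjusted p = 0.0228), and it was 3.77 with an adjusted p of 0.0717 without pool 3 of 5% olive oil. The call on Acot1 also ended without pool 1 of 5%, pool 1 of 70% or pool 2 of 70% olive oil. Without 1 array its difference ran from 3.02 to 4.34, with a limma adjusted p of at most 0.120. Cyp4a1, the microsomal fatty acid omega-hydroxylase, read -0.13, 0.08 and -0.03 at 5% and 1.15, 1.16 and 0.93 at 70%. Both groups were tight, and the difference of 1.11 ± 0.21 had a limma adjusted p of 0.0432 with the spread of all arrays and 0.00248 with that of the olive oil arrays alone. Its call ended without any 1 of the 6 olive oil arrays, and without pool 3 at 5% the difference was 1.10 with an adjusted p of 0.134. Its relatives Cyp4a3 and Cyp4a8 differed by 0.39 ± 0.24 and 0.13 ± 0.11. Plin2, a lipid droplet coat protein, differed by 0.47 ± 0.21 and Ppara itself by 0.29 ± 0.10. None of these 4 passed.

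**Figure D3:**
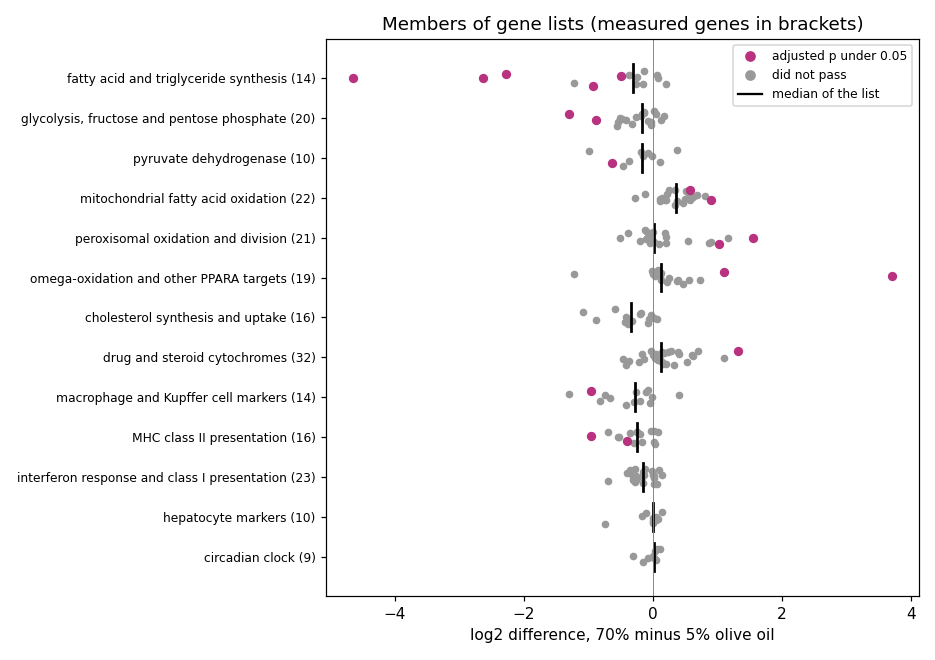
Log2 differences of 70% minus 5% olive oil for the measured members of 13 gene lists; each point is a gene, filled points in magenta passed the limma test and black bars are list medians. Members of fatty acid synthesis reach the lowest values, 20 of 22 members of mitochondrial oxidation lie above 0, and hepatocyte and clock genes centre near 0.

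Of 28 genes of fatty acid uptake, binding and lipid droplets 1 fell. Fabp5, a fatty acid-binding protein, read 2.03, 1.27 and 1.91 at 5% and -1.55, -1.38 and -1.05 at 70%. All 5% pools lay above 1 and all 70% pools below -1, a difference of -3.06 ± 0.24, or 8.36-fold lower (limma adjusted p = 9.09e-05), the smallest p-value of all genes. Fabp1, the main fatty acid-binding protein of liver, differed by 0.07 ± 0.10 and Cd36, a fatty acid receptor, by 0.06 ± 0.20. Without pool 3 of 5% olive oil these were 0.0086 and 0.20, and neither passed. Acsl5, an acyl-CoA synthetase, read 0.99, 0.65 and 0.74 at 5% and -0.03, 0.09 and 0.26 at 70% without overlap; its difference of -0.68 ± 0.14 had a limma adjusted p of 0.0649.

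Of 15 lipoprotein genes 2 fell. Apoa4, an apolipoprotein of triglyceride-rich particles, read 0.86, 0.73 and 0.78 at 5% and -0.82, -0.08 and 0.03 at 70% (difference -1.08 ± 0.17, limma adjusted p = 0.0122). The 5% pools were nearly equal and pool 1 at 70% was the lowest. Apobec1, the deaminase that edits the Apob transcript to the shorter form, read 0.59, 0.24 and 0.49 at 5% and -0.85, -0.36 and -0.38 at 70% (difference -0.97 ± 0.15, limma adjusted p = 0.0122). Without pool 3 of 5% olive oil the adjusted p was 0.0531 for Apoa4 and 0.0624 for Apobec1, with differences of -1.09 and -0.94. Apob itself differed by 0.08 ± 0.14, and by 0.26 without that pool.

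For cholesterol synthesis and uptake limma called 0 of 16 genes. Those at an unadjusted p under 0.05 numbered 5, all lower at 70%, against 189 lower of all 4736 genes. The median was -0.33, and 14 of the 16 were below 0, against 1931 of all genes. Without pool 3 of 5% olive oil the median was -0.15. Acat2, the cytosolic thiolase at the start of the pathway, read 0.64, -0.15 and 0.83 at 5% and -0.63, -1.10 and -0.22 at 70%. Its arrays just failed to overlap, and the difference was -1.09 ± 0.26 (limma adjusted p = 0.147). Insig1, which retains sterol-sensing proteins in the endoplasmic reticulum, differed by -0.88 ± 0.24. Sqle, squalene epoxidase, read 0.19, -0.93 and 0.59 at 5% and -0.30, -1.10 and 0.08 at 70%. Pool 2 was its lowest array in both diets, the diets overlapped, and the difference was -0.39 ± 0.38; without pool 3 of 5% olive oil it was -0.07.

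In bile acid synthesis and transport 1 of 20 genes rose. Cyp7b1, the oxysterol hydroxylase of the alternative pathway, read -0.59, -0.87 and -0.68 at 5% and 0.04, 0.04 and -0.06 at 70% (difference 0.72 ± 0.13, limma adjusted p = 0.0323; 0.0964 without pool 3 of 5% olive oil). The 3 arrays at 70% were nearly equal. Cyp7a1, the rate-limiting enzyme of the classical pathway, read 0.00, -0.00 and 0.29 at 5% and -0.96, -0.55 and -0.35 at 70%. The arrays did not overlap, and its difference of -0.72 ± 0.17 did not pass (limma adjusted p = 0.132). Its 2 probe sets stood apart, at -1.38 and -0.06. The phospholipid exporter Abcb4 differed by 0.77 ± 0.19 (limma adjusted p = 0.148 in the fit on all arrays and 0.032 in that on the olive oil arrays).

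Of 32 cytochromes of drug and steroid metabolism 1 rose, and 12 had non-overlapping arrays, all higher at 70%, against 12.7% of all genes. Cyp2b2, known for induction by phenobarbital, read -0.39, -0.19 and -0.74 at 5% and 1.0, 1.07 and 0.60 at 70% (difference 1.33 ± 0.24, limma adjusted p = 0.0326). Pool 3 was the lowest of its diet at both fat levels, and without pool 3 of 5% olive oil the difference was 1.18 with an adjusted p of 0.132. Cyp3a23-3a1 read -0.51, -0.11 and -1.59 at 5% and 0.46, 0.48 and 0.16 at 70%, with pool 3 at 5% far below the others (difference 1.10 ± 0.29, limma adjusted p = 0.186; 0.67 without that pool). Among 20 alcohol, aldehyde and retinoid dehydrogenases and retinoid receptors, 1 rose. Aldh1a1, which oxidises retinal to retinoic acid, read -0.70, -0.33 and -0.65 at 5% and 0.76, 0.42 and 0.25 at 70% (difference 1.04 ± 0.14, limma adjusted p = 0.00389), and held without each array.

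Markers of macrophages and Kupffer cells, the resident macrophages of liver, were lower at 70% in 13 of 14 genes, against 1931 of all 4736. Their median was -0.28, and 1 passed. In pooled tissue RNA, fewer cells of a type and less RNA per cell cannot be told apart. Ctss, a lysosomal protease that trims the class II invariant chain, read 0.58, 0.16 and 0.39 at 5% and -0.66, -0.56 and -0.51 at 70%. The 70% arrays were tight and did not overlap the 5% arrays (difference -0.96 ± 0.16, limma adjusted p = 0.0164; 0.0717 without pool 3 of 5% olive oil). Clec4f, a Kupffer cell lectin, read 0.29, 0.09 and 0.07 at 5% and -0.60, -0.70 and -0.47 at 70% (difference -0.74 ± 0.24). C1qb, a complement subunit made by macrophages, differed by -0.66 ± 0.18 and Lyz2, lysozyme, by -0.81 ± 0.23, whereas Csf1r, the receptor for the macrophage growth factor, was at -0.04 ± 0.08. Cd14, a receptor for bacterial lipopolysaccharide, was the marker above 0: it read 0.29, 0.18 and -0.64 at 5% and 0.29, 0.43 and 0.35 at 70%. Its highest 5% pool and lowest 70% pool were nearly equal, and the difference was 0.41 ± 0.29, or 0.12 without pool 3 of 5% olive oil. The summed log2 differences of the 14 markers were 3.43, 0.93 and 3.98 in the 5% pools and -3.73, -2.67 and -1.64 in the 70% pools. Hmox1, which is on this list, read 0.27, 0.59 and 2.65 at 5% and -0.17, -0.22 and -0.02 at 70%, and its difference was -1.31 ± 0.45, or -0.57 without pool 3 of 5% olive oil. Without that pool the list median was -0.26 and 0 members were called by limma. Their part in the other results was not tested, and since values are centred it cannot be read which markers are near background.

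Genes of class II antigen presentation, 16 in all, had 2 that fell, Ctss and RT1-DMb, and 8 with non-overlapping lower arrays at 70% against 7.28% of all genes. RT1-DMb, part of the peptide-loading chaperone, read 0.16, -0.04 and 0.15 at 5% and -0.32, -0.24 and -0.36 at 70% (difference -0.39 ± 0.08, limma adjusted p = 0.0432; 0.187 without pool 3 of 5% olive oil). RT1-Da, a class II alpha chain, differed by -0.70 ± 0.15 and Cd74, the invariant chain, by -0.55 ± 0.14; neither passed. In the interferon and class I list limma called 0 of 23, and 8 had non-overlapping lower arrays. Its members at an unadjusted p under 0.05 numbered 6, all lower, against 189 lower of all 4736 genes. Of 36 inflammation and acute-phase genes limma called 0. Those at an unadjusted p under 0.05 numbered 2, both higher, against 199 higher of all 4736 genes. Without pool 3 of 5% olive oil, which widened the spread of this list, limma also called 0 and the median was -0.004. Hepatocyte markers had a median of 0.01 over 10 genes, 6 above 0 and 4 below, with 0 called by limma and 1 at an unadjusted p under 0.05. That marker was Ass1, at -0.75 ± 0.22 (limma adjusted p = 0.233). Alb, albumin, differed by 0.04 ± 0.07.

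The remaining called genes belong to no metabolic list above. Cavin3, a coat protein of caveolae, read 0.74, 0.46 and 0.76 at 5% and -0.25, -0.01 and -0.28 at 70% (difference -0.83 ± 0.11, limma adjusted p = 0.00389). Its groups did not overlap and the call held without each array. Nln, the metallopeptidase neurolysin, differed by -0.71 ± 0.11 and Fxyd2, a regulatory subunit of the sodium pump, by -0.59 ± 0.10 (limma adjusted p = 0.0122 and 0.0281). Without pool 3 of 5% olive oil these were -0.60 and -0.67, with adjusted p of 0.0531 and 0.0241. The call on Fxyd2 ended without pool 1 or pool 2 of either olive oil diet, each left out singly. Its limma adjusted p was at most 0.170 without 1 array. Impa2, an inositol monophosphatase, read -0.15, -0.18 and -0.27 at 5% and 0.42, 0.15 and 0.64 at 70%, a difference of 0.61 ± 0.12 (limma adjusted p = 0.0432; 0.177 without pool 3 of 5% olive oil).

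Probe sets of the same gene did not always move alike. In the test of single probe sets 38 of 8740 passed (0.435%), 11 higher and 27 lower; 32 had 1 gene symbol and 6 had several or none. They covered 26 genes, of which 22 were also called as genes. Eci1 had 4 probe sets at 1.61, 1.505, 0.31 and 0.15, so its mean lies between a pair that moved strongly and a pair that did not. Of 6 probe sets with Scd2, a desaturase related to Scd, as their only symbol, 1 fell by 1.07 (limma adjusted p = 0.00839). The gene mean was -0.24 ± 0.08, and probe sets with several symbols or none do not enter such means. Me1 had 4 probe sets between -1.61 and -1.39 and 1 at -0.14. Pfkfb1, which sets the level of fructose 2,6-bisphosphate, had 4 probe sets, of which 1 was called, at -0.99. The others stood at -0.80, -0.52 and 0.06. Acot2, the mitochondrial relative of Acot1, had probe sets at 1.20 and 0.40, and a called probe set annotated to both Acot1 and Acot2 stood at 1.28. Near-identical copies such as these, the Scd genes and the Cyp2b and Cyp4a genes may share probes, so which member changed is uncertain.

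**Figure D4:**
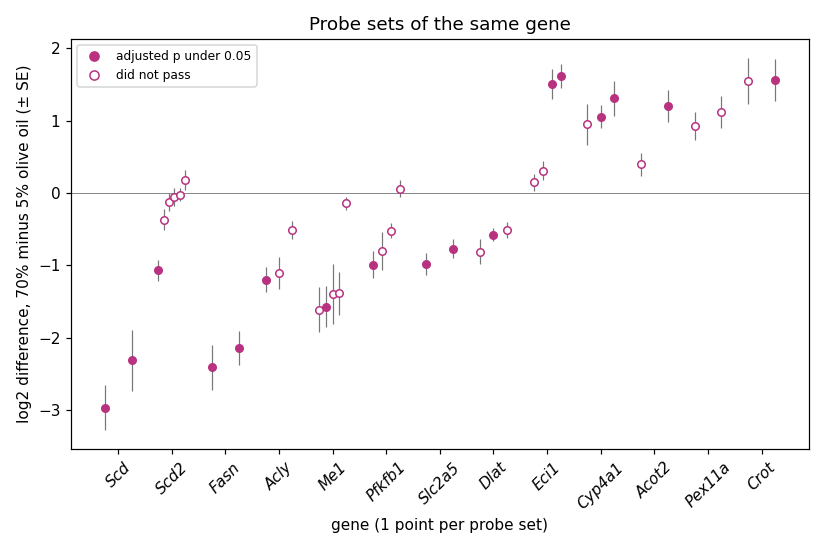
Log2 differences of 70% minus 5% olive oil for each probe set of 13 genes, with SE bars; filled points passed the limma test over 8740 probe sets. The probe sets of Fasn and Scd lie together, and those of Eci1, Me1 and Scd2 fall apart.

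Fat level was also tested with corn oil, which is rich in polyunsaturated fatty acids, in separate arrays that share the estimate of spread. Of the 26 genes, 18 also passed there in the same direction, where 2.53% of all genes were called. For the difference between the fat effects of the oils, limma called 0 of 4736 genes, with 565 (11.9%) at an unadjusted p under 0.05, 12 of the 26 among them. The lowest adjusted p was 0.168. The 26 were chosen for their olive oil effect, which is part of this difference, so their share cannot be set against that of all genes. Scd differed by -2.64 with olive oil and by -5.54 with corn oil, a difference of 2.90 ± 0.48 (limma adjusted p = 0.168). Ctss differed by -0.96 with olive oil and 0.10 with corn oil, a difference of -1.05 ± 0.22 (limma adjusted p = 0.205), and Cyp7b1 by 0.72 and -0.36, a difference of 1.08 ± 0.18 (limma adjusted p = 0.168). Pnpla3 was -4.64 ± 0.42 with olive oil and -4.68 ± 0.42 with corn oil.

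**Figure D5:**
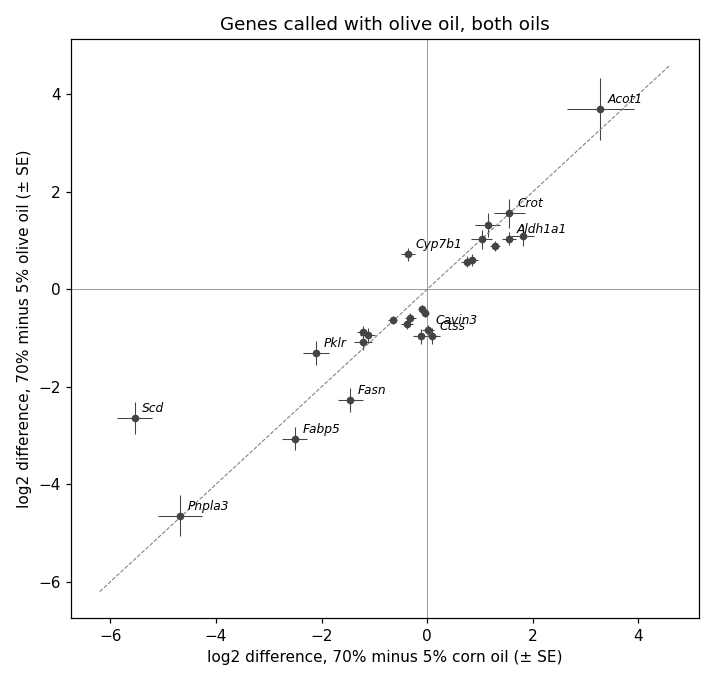
The 26 genes called with olive oil, with the log2 difference of 70% minus 5% fat under corn oil on the x axis and under olive oil on the y axis, bars for SE and a dashed line of equal effects. Scd lies farthest from the line; Ctss and Cavin3 are near 0 with corn oil and below 0 with olive oil.

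The 3'/5' index of the actin and GAPDH control probe sets, a measure of RNA integrity, was -0.346 ± 0.102 (SD, n = 3) at 70% and -0.364 ± 0.058 at 5% olive oil (two-sided exact permutation test, p = 0.8; the smallest possible p is 0.1). The corn oil arrays stood apart in it, at 1.502, 1.36 and 0.967 with 5% and 0.948, 0.161 and 1.03 with 70% fat, while the olive oil arrays ran from -0.428 to -0.228. It thus separates the oils, moves with the comparison between them, and varies among the corn oil arrays that share the estimate of spread. With the index as a covariate 30 genes were called for olive oil, 25 of them among the 26, and limma called 0 for the difference between oils.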

How the data were processed

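Liver RNA pools were measured on single-colour Affymetrix rat arrays. The submitters' processing notes name GCOS and RMA without versions. For 8799 probe sets the authors deposited values on a log2 scale; each has a median of 0 over the 12 arrays, so no level or detection is known, and the base was taken as 2. After 59 controls were left out, 8740 probe sets were tested. Of these, 7006 had 1 gene symbol, 308 had several and 1426 none. Single symbols were checked against GRCr8 through gene identifiers for 6985, which changed no symbol. Called probe sets without a single symbol are given as counts, except that annotated to both Acot1 and Acot2. Probe sets of a gene were averaged.

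A linear model with 1 mean per diet was fitted to all 12 arrays with limma 3.58.1 in R 4.3.3, with eBayes and Benjamini-Hochberg adjustment (threshold 0.05, two-sided). The code was tested on simulated data. The number of arrays limits precision. Members and lists were chosen with earlier results of these data known. Named genes were all that passed, and in each list those that passed or up to 4 with the smallest p, with others named for their role after their values were seen. The main fit did not pair arrays by pool number. Alternatives were other arrays in the fit, normalizations, weights, filters and leaving out arrays. Background correction and a filter on dim probes need levels and were not run; features above the median SD were used instead.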

Additional observations from a re-analysis of the deposited data

How the results depend on the processing

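The main count of 38 probe sets was 97 with only the 6 olive oil arrays, 22 with each array centred (4 up, 18 down, against 11 and 27), 98 after a second quantile normalization, 138 with array weights, 64 with the 3'/5' index as covariate and 70 at an adjusted p under 0.1. When each array was left out it ran from 10 to 69: 12 and 13 (5% olive oil, pools 1 and 3), 10 and 19 (70% olive oil, pools 1 and 2), 22 and 23 (5% corn oil, pools 2 and 3), 69 and 61 (70% corn oil, pools 2 and 3). The main count of 26 genes was 40 with only the olive oil arrays, 49 after a second quantile normalization and 94 with array weights, and ran from 11 to 37 when each array was left out. The cause of these shifts was not tested. With the pool number as a block, 16 probe sets and 9 genes passed, 8 of them among the 26; the correlations of same-numbered pools (0.0195, -0.0385 and 0.0180) gave no sign that numbers pair the arrays. The count of genes whose fat effect differed between oils ran from 0 to 4 without 1 array, with 4 without pool 3 of 5% corn oil and 1 without pool 1 of 70% corn oil. Of the 188 genes followed singly, 10 changed sign in at least 1 setting, all of them uncalled. Without 1 array Apob ran from -0.091 to 0.26, Bmal1 from -0.047 to 0.18, Cd36 from -0.16 to 0.31, Fabp1 from -0.0038 to 0.15, Lbp from -1.05 to 0.0044, Lcn2 from -2.86 to 0.43, Pck1 from -0.24 to 0.79, Per2 from -0.33 to 0.039, Slc16a7 from -0.035 to 0.21 and Srebf1 from -0.27 to 0.31. Centred values hide the signal over background, so a dim gene cannot be told from a steady one.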

Other observations

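Genes outside the groups described above also differed by more than 2-fold between olive oil diets without passing the test. Of the 14 genes at least 2-fold higher at 70%, 6 were called, and of the 14 at least 2-fold lower, 6 were called. Slc25a30, a mitochondrial carrier, read -1.52, 0.03 and -0.27 at 5% and 1.34, 0.62 and 1.49 at 70%. Pool 1 at 5% lay more than 2-fold below every other olive oil array; the difference was 1.74 ± 0.50 (limma adjusted p = 0.227), and 1.27 without that pool. Slc6a6, the taurine transporter, differed by 1.13 ± 0.28 and Serpina7, thyroxine-binding globulin, by 1.14 ± 0.33 (limma adjusted p = 0.154 and 0.231). Igfbp1, a binding protein of insulin-like growth factors that insulin is known to lower, read -0.91, 0.40 and 1.20 at 5% and -1.21, -0.36 and -0.93 at 70%. Its diets overlapped, and the difference was -1.06 ± 0.60 (limma adjusted p = 0.715), or -0.58 without pool 3 of 5% olive oil. Nupr1, a stress-response gene, differed by -1.20 ± 0.32 (limma adjusted p = 0.186).

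In the list of 32 stellate cell and matrix genes limma called 0, and the median was 0.09. This list had 6 higher and 1 lower at an unadjusted p under 0.05, against 199 and 189 of all 4736 genes. Its smallest p was that of Col3a1, a fibrillar collagen, which read -0.10, -0.37 and -0.38 at 5% and 0.08, -0.01 and 0.12 at 70%, with no overlap and a difference of 0.35 ± 0.09 (limma adjusted p = 0.154). The circadian genes had a median of 0.02 over 9 genes, with 0 called by limma and 0 at an unadjusted p under 0.05.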
